A study of Homo sapiens with 18 samples.

Results

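The genes described are IL6R, IL6ST, IL10RA, IL10RB, JAK1, JAK2, STAT3, SOCS1, SOCS3 and CISH, the receptors, kinases, transcription factor and feedback inhibitors through which IL-6 and IL-10 signal. These 10 genes were chosen by symbol from the 43735 genes of the raw read count table, in which all 10 were present. The cells were MM1S, a human multiple myeloma line sensitive to glucocorticoids, and MM1R, a glucocorticoid-resistant line of the same origin that is known for its lack of glucocorticoid receptor. Each line was left untreated, given 5 µM RSL3 for 3 h, or given 2 µM ferrostatin-1 (Fer-1) for 2 h ahead of RSL3, in medium with serum. RSL3 inhibits GPX4, which detoxifies lipid peroxides, and so triggers ferroptosis, while Fer-1 prevents lipid peroxidation. Both compounds were dissolved in DMSO. No vehicle control is described for these libraries, so an action of the solvent cannot be told apart from theirs. Each of the 6 groups held 3 libraries of total RNA. MM1R cells were sampled at passages 4, 6 and 7, and for MM1S cells the passages were 16, 22 and 23. Each passage thus gave 1 library of every treatment. The passages of both lines differ, so that line and passage number cannot be told apart, and since every Fer-1 library also received RSL3, an action of Fer-1 on its own cannot be told apart from its action on the RSL3 response.

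IL-6 binds IL6R and then engages IL6ST (gp130), the chain that carries the signal, whereas IL-10 binds IL10RA together with IL10RB. Both receptors activate JAK kinases, which phosphorylate STAT3, a transcription factor that induces, among others, the genes of the SOCS family. SOCS1, SOCS3 and CISH in turn switch off cytokine receptors and kinases, and IL-6 is a well-known growth and survival factor of myeloma plasma cells.

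Total counts per library lay between 17635438 and 19368343, so that depth differed little between groups. Plasma cell markers summed to 8387 to 17720 CPM (read counts scaled by the size of each library), against at most 4.84 CPM for 4 B cell, 11.8 CPM for 3 T cell and 33.0 CPM for 4 monocyte and macrophage markers. Among the 18 libraries, 2 stood apart. Replicate 2 among the libraries labelled MM1R Fer-1 + RSL3 had 50.2 CPM of the glucocorticoid receptor gene NR3C1, while the others of its group had 16.9 and 15.3 CPM. Over 10 genes that separate the lines it reached 48.5% of the MM1S level, compared with -0.741% to 2.8% in the other MM1R libraries. These genes were picked with this library left out, for separating the lines in the others, so the narrow range of the other MM1R libraries follows from the choice. The library MM1S RSL3 replicate 1 had the lowest TMM scaling factor (0.864, others 0.926 to 1.06), 392 CPM of NR3C1 (97.6 and 102 CPM in its group) and 22.9 CPM over the 4 stromal markers. Of these, COL1A1 gave 19.5 CPM, PDGFRB 2.17 CPM, CXCL12 1.18 CPM and COL1A2 0.0657 CPM. What lies behind either library was not tested, and calls that are lost without one of them are given with that value.

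In untreated cells, the receptor chains for IL-6 were the most abundant of the 10 genes when counts were divided by the length of the annotated exons. IL6R was at 49.0 ± 6.74 CPM per kb (SD, n = 3) in MM1R cells and at 47.8 ± 4.93 in MM1S cells. IL6ST followed with 25.8 ± 6.02 and 32.9 ± 3.24 CPM per kb, and its libraries did not overlap with those of IL6R. Next came JAK1 (12.1 ± 2.05 and 14.8 ± 1.47 CPM per kb) and IL10RB (10.2 ± 1.12 and 12.1 ± 1.37), which overlapped in MM1R cells but not in MM1S cells. STAT3 (6.35 ± 0.854 and 6.17 ± 0.658 CPM per kb) and IL10RA (6.01 ± 0.953 and 7.05 ± 0.797) could not be ordered. The same held for JAK2 (2.41 ± 0.873 and 2.33 ± 0.0901 CPM per kb) and SOCS1 (2.30 ± 0.25 and 1.78 ± 0.449). CISH, with 0.246 ± 0.0298 and 0.312 ± 0.0281 CPM per kb, and SOCS3, with 0.0323 ± 0.0293 and 0.101 ± 0.0938, were the scarcest and did not overlap in either line. The exon length counts every annotated exon once, whichever transcripts the cells use.

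**Figure D1:**
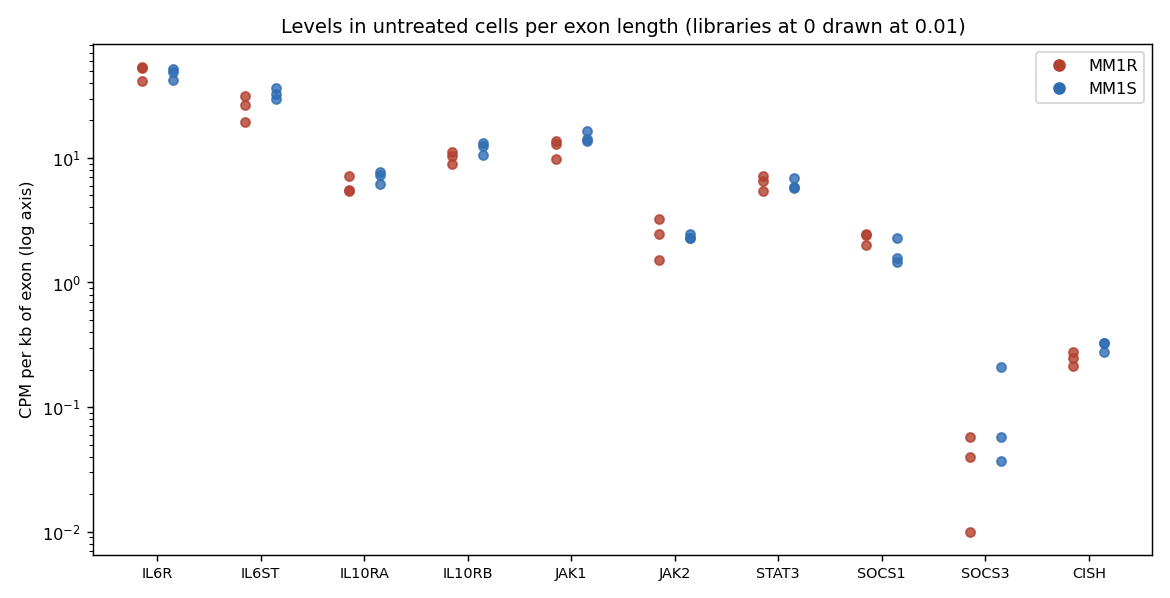
Level of the 10 genes in untreated MM1R (red) and MM1S (blue) cells, in CPM per kb of annotated exon on a log axis, with 1 point per library (3 per line, a library at 0 drawn at the bottom). IL6R and IL6ST lie highest and SOCS3 lowest, and both lines lie close together for most genes.

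Promoter windows of 4 genes are shown because they belong to the genes that differed most with RSL3 (IL10RA, SOCS1 and SOCS3) and to CISH. CISH was lower with RSL3 in every passage but was not called. Each is the 250 bases ahead of a RefSeq transcription start in GRCh38.p14, 5′ to 3′ along the gene, for IL10RA at chr11:117989695-117989944 (plus strand), SOCS1 at chr16:11256205-11256454 (minus strand), SOCS3 at chr17:78360926-78361175 (minus strand, the first of 2 starts) and CISH at chr3:50611775-50612024 (minus strand). Capitals mark TTCNNNGAA, the form of site that STAT factors bind, and TGANTCA, the form that AP-1 binds, where N is any base, read on both strands.
IL10RA: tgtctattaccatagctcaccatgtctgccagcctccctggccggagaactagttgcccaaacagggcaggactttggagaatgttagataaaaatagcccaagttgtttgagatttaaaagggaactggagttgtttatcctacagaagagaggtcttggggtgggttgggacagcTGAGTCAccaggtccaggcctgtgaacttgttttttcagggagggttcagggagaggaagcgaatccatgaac
SOCS1: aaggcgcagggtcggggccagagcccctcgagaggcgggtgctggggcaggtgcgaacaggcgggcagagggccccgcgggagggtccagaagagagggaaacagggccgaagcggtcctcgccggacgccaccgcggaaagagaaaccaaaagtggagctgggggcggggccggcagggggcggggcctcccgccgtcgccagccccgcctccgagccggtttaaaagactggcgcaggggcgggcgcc
SOCS3: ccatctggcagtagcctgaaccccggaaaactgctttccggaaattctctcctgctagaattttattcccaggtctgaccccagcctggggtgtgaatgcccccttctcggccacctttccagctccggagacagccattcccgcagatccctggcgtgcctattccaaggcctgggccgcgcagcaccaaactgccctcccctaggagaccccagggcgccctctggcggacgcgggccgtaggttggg
CISH: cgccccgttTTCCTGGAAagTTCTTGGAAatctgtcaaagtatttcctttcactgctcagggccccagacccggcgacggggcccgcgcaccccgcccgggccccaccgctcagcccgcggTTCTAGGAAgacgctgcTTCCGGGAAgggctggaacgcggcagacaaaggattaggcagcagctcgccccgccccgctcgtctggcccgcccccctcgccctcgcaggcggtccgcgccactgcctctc
CISH held 4 matches to TTCNNNGAA, 2 of them also of the narrower form TTCCNGGAA, and IL10RA held 1 match to TGANTCA and none to TTCNNNGAA. The windows shown for SOCS1 and SOCS3 held neither. Over all 35116 RefSeq windows of this length, 6.57% held TTCNNNGAA, 6.57% held TGANTCA and 0.968% held TTCCNGGAA. Among the 16 windows of the 10 genes, those of CISH and IL10RA alone held either form. TGACNNNGC, the core of the antioxidant response element, was in 10.9% of all windows and matched in IL10RA (where it overlaps the TGANTCA match), IL10RB and 1 of 3 windows of JAK1. A match only says that these letters stand in the window, and a lack of matches says nothing of sites outside it. Whether each window lies at the start of the hg19 gene position given below was not checked. A window, and a match in it, may thus lie ahead of a start inside the gene.

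IL10RA, the IL-10 binding chain, was higher with RSL3 in both lines, and the inhibitors SOCS1 and SOCS3 were higher on average, whereas CISH, IL6R, IL10RB, JAK2 and STAT3 passed no test. In bulk RNA, a lower share of cells of one state and less RNA per cell cannot be told apart. A gene was called when edgeR's quasi-likelihood test gave a Benjamini-Hochberg adjusted p over all 14281 genes tested (FDR) below 0.05 with an absolute log2 fold change above 1. In MM1R cells, 2 of the 10 genes were called, IL10RA and SOCS3, both higher, where 1.2% of all tested genes were called. In MM1S cells, 1 gene, IL10RA, was called higher (1.61% of all genes). With the passage as a block, the shares of all genes called were 2.87% and 2.71%, and 3 and 1 of the 10 genes were called. Averaged over both lines, 3 genes were called, IL10RA, SOCS1 and SOCS3, all higher (3.24% of all genes), and 5 had an FDR under 0.05 whatever their fold, IL6ST and JAK1 being the others (15.5% of all genes). The median log2 fold change of the 10 genes was 0.34 in MM1R cells and 0.14 in MM1S cells, compared with 2e-04 and 0.0022 over all tested genes.

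**Figure D2:**
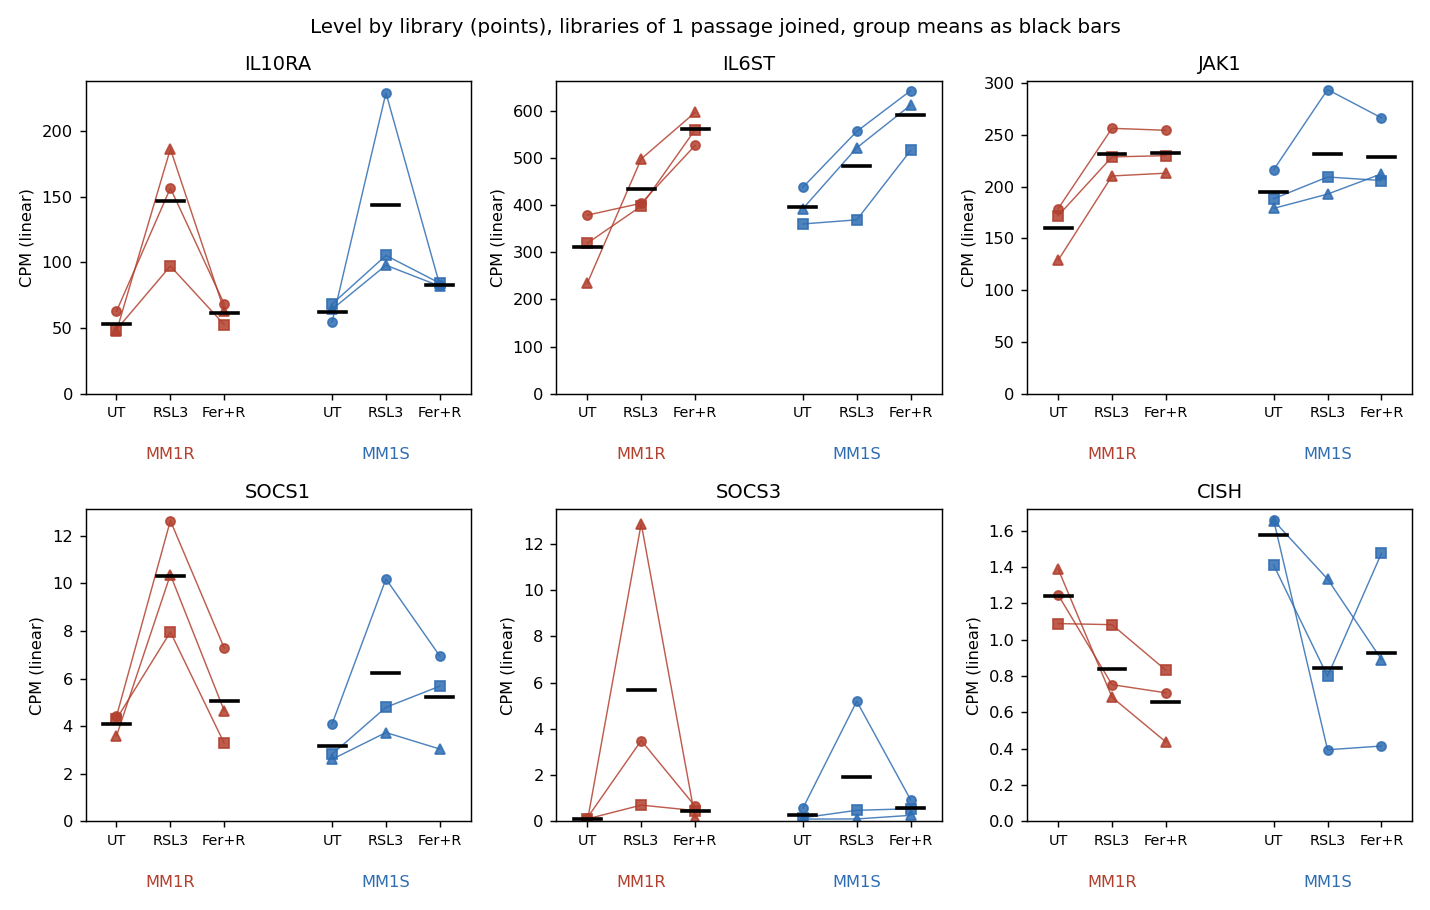
CPM (linear axis) of 6 of the genes in untreated (UT), RSL3 and Fer-1 + RSL3 (Fer+R) libraries of MM1R (red) and MM1S (blue) cells. Points are libraries, joined within a passage (circle, square and triangle for replicates 1, 2 and 3), and black bars are group means. IL10RA peaks with RSL3 in each passage, IL6ST climbs through both steps, and SOCS3 is carried by few libraries.

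IL10RA, the chain that binds IL-10, is at hg19 chromosome 11, 117857085 to 117873752. In MM1R cells it was at 62.7, 48.8 and 47.6 CPM without treatment, at 156, 97.1 and 186 CPM with RSL3 and at 68.2, 52.5 and 63.2 CPM with Fer-1 and RSL3. The corresponding MM1S values were 54.5, 68.2 and 64.2 CPM, then 229, 105 and 97.7 CPM, then 82.4, 84.1 and 81.8 CPM. All RSL3 libraries thus lay above all untreated and all Fer-1 libraries of their line. The rise with RSL3 was 1.47 on the log2 scale in MM1R cells (SE 0.27, FDR = 0.00958) and 1.21 in MM1S cells (SE 0.27, FDR = 0.0222). It was seen in 6 of 6 passages, by 0.61 to 2.07, and averaged 1.34 over both lines (SE 0.19, FDR = 0.000338). The MM1S value leaned on replicate 1. Without it, the log2 fold change in MM1S cells was 0.71 (FDR = 0.108), and the average was 1.09 (FDR = 8.63e-05). In MM1S cells the call was also lost without untreated replicate 1, 2 or 3 (FDR = 0.116, 0.0608 and 0.075).

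SOCS3, an inhibitor that binds IL6ST and JAK kinases, is at hg19 chromosome 17, 76352859 to 76356158, and was close to undetected without treatment. The untreated MM1R libraries had 3, 2 and 0 counts, the RSL3 libraries 65, 13 and 226, and the Fer-1 libraries 13, 9 and 3. The MM1S libraries had 11, 3 and 2, then 79, 9 and 2, then 18, 10 and 5 counts. In MM1R cells every RSL3 library was thus above every untreated one, while in MM1S cells the groups overlapped and replicate 1 held most of the RSL3 counts. Summed over the MM1R libraries, 304 counts with RSL3 against 5 without gave a ratio of 61.1 (95% exact Clopper-Pearson interval 25.9 to 190), and 90 against 16 counts in MM1S cells gave 6.23 (3.63 to 11.4). These intervals take the summed reads as independent draws, which they need not be, and leave out the spread between passages. They are therefore narrower than the data allow for a difference between the groups. The fitted log2 fold change was 5.87 in MM1R cells (SE 1.38, FDR = 0.0286) and 2.74 in MM1S cells (SE 1.2, FDR = 0.219), averaging 4.30 (SE 0.92, FDR = 0.00516), and depends on how near 0 the untreated counts are. Without MM1S RSL3 replicate 1 it was 0.10 in MM1S cells (FDR = 0.99) and 2.98 on average (FDR = 0.0416). The MM1R call was lost without untreated replicate 1, 2 or 3 (FDR = 0.0928, 0.11 and 0.107) or without RSL3 replicate 1 or 3 (FDR = 0.0644 and 0.111).

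SOCS1, which blocks JAK kinases directly, is at hg19 chromosome 16, 11348274 to 11350061. Its MM1R libraries read 4.42, 4.30 and 3.59 CPM without treatment, 12.6, 7.96 and 10.4 CPM with RSL3, and 7.28, 3.28 and 4.64 CPM with Fer-1 and RSL3. The MM1S libraries read 4.09, 2.82 and 2.61 CPM, then 10.2, 4.80 and 3.74 CPM, then 6.95, 5.69 and 3.04 CPM. The untreated and RSL3 libraries did not overlap in MM1R cells, but did in MM1S cells. SOCS1 rose with RSL3 by 1.15 on the log2 scale averaged over both lines (SE 0.27, FDR = 0.00904) and was higher in 6 of 6 passages, by a median of 1.08. Neither line alone passed, with 1.33 in MM1R cells (SE 0.38, FDR = 0.0612) and 0.97 in MM1S cells (SE 0.38, FDR = 0.175), but with the passage as a block MM1R cells gave 1.30 (SE 0.21, FDR = 0.00285) and SOCS1 was called there. It was also called in MM1R cells by DESeq2 (FDR = 0.011), without a filter on low counts, with only the groups compared (FDR = 0.0156), and without MM1S RSL3 replicate 1 (FDR = 0.0143) or 3 (FDR = 0.0446). Without MM1S RSL3 replicate 1, the average was 0.88 (FDR = 0.0218), under the fold threshold, and the MM1S value was 0.43 (FDR = 0.703). Exon sequence of SOCS1 overlaps the annotated span of RMI2 on the opposite strand. Whether it overlaps exons of RMI2 was not checked. RMI2 had 25.5 ± 3.17 CPM in untreated and 34.3 ± 3.24 CPM in RSL3-treated MM1R cells. In MM1S cells it had 30.6 ± 2.71 and 37.8 ± 4.01 CPM. How counting used strand is not given in the sources used here, so whether RMI2 reads entered the SOCS1 count cannot be told.

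CISH, an inhibitor best known downstream of STAT5, is at hg19 chromosome 3, 50643920 to 50649205, and had only 6 to 33 counts per library. It read 1.25, 1.09 and 1.39 CPM in untreated and 0.753, 1.08 and 0.684 CPM in RSL3-treated MM1R cells. In MM1S cells these were 1.66, 1.41 and 1.66 CPM and 0.394, 0.799 and 1.33 CPM. All RSL3 libraries lay below the untreated ones of their line, in the direction opposite to SOCS1 and SOCS3, but the averaged log2 fold change of -0.72 did not pass (SE 0.3, FDR = 0.116). The gap was a few reads at most. At MM1R passage 6 both libraries had 20 counts, and the nearest MM1S libraries had 27 untreated and 25 with RSL3. Of all tested genes, 25.7% in MM1R and 24.9% in MM1S cells did not overlap. With Fer-1 and RSL3, CISH was at 0.659 ± 0.202 CPM in MM1R cells and at 0.927 ± 0.531 CPM in MM1S cells. Exon sequence of CISH overlaps the annotated span of MAPKAPK3 on the opposite strand, and overlap with exons of MAPKAPK3 was not checked. MAPKAPK3 was at 56.7 to 63.4 CPM on average in the 6 groups. If a small share of its reads were counted for CISH, they would weigh on the CISH value.

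IL6ST, at hg19 chromosome 5, 55230923 to 55290850, did not follow IL10RA. In MM1R cells it read 379, 319 and 234 CPM without treatment, 404, 398 and 498 CPM with RSL3 and 526, 560 and 596 CPM with Fer-1 and RSL3. The MM1S libraries read 438, 360 and 392 CPM, then 556, 369 and 521 CPM, then 642, 516 and 612 CPM. It was higher with RSL3 in 6 of 6 passages (by 0.03 to 1.09 on the log2 scale), and higher again with Fer-1 in 6 of 6 (by 0.21 to 0.49). The averaged difference with RSL3 was 0.38 (SE 0.12, FDR = 0.0441), under the fold threshold, and its FDR was above 0.05 in 14 of the 18 fits that leave out 1 library (up to 0.101), those without MM1S RSL3 replicate 1 (0.33, FDR = 0.093) and MM1R Fer-1 + RSL3 replicate 2 (0.38, FDR = 0.0547) among them. With the passage as a block, MM1R cells alone gave 0.48 (FDR = 0.0475). Against untreated cells, it was 0.85 higher with Fer-1 and RSL3 in MM1R cells (SE 0.17, FDR = 0.00671, under 0.05 in all 18 fits without 1 library), while in MM1S cells the value was 0.57 (SE 0.17, FDR = 0.0698), or 0.57 with the block (FDR = 0.0212).

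JAK1, the kinase bound to IL6ST and IL10RA, is at hg19 chromosome 1, 65298906 to 65533437. It read 179, 172 and 129 CPM in untreated, 256, 229 and 210 CPM in RSL3-treated and 254, 230 and 213 CPM in Fer-1 and RSL3-treated MM1R cells. MM1S cells gave 216, 188 and 179 CPM, then 294, 209 and 193 CPM, then 266, 206 and 212 CPM. RSL3 libraries were higher in 6 of 6 passages, and both treatments lay together above the untreated level in MM1R cells. The averaged difference was 0.39 (SE 0.12, FDR = 0.0294), and its FDR was above 0.05 in 5 of the 18 fits without 1 library (MM1R untreated replicate 3, MM1R RSL3 replicate 1, MM1S untreated replicates 2 and 3 and MM1S RSL3 replicate 1, FDR up to 0.0767). MM1R cells alone gave 0.54 (SE 0.16, FDR = 0.0816), or FDR = 0.00198 with the passage as a block. In MM1R cells, Fer-1 and RSL3 gave 0.54 against untreated (SE 0.16, FDR = 0.048), but its FDR was above 0.05 in 15 of the 18 fits without 1 library (up to 0.191) and with RLE scaling (FDR = 0.0517) or upper-quartile scaling (FDR = 0.0606). Fer-1 and RSL3 differed from RSL3 by -0.01 on average (95% interval -0.25 to 0.23).

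The remaining 4 genes showed no called difference in any comparison. IL6R (hg19 chromosome 1, 154377669 to 154441926) lay between 213 and 409 CPM over all 18 libraries, and its averaged log2 fold change with RSL3 was -0.05 (95% interval -0.30 to 0.20). IL10RB (hg19 chromosome 21, 34638672 to 34683725), the second chain of the IL-10 receptor, lay between 69.7 and 106 CPM, with -0.14 (-0.32 to 0.05). STAT3 (hg19 chromosome 17, 40465342 to 40540558), the transcription factor itself, lay between 57.4 and 89.8 CPM, with 0.05 (-0.21 to 0.31). JAK2 (hg19 chromosome 9, 4984390 to 5129948), a kinase that also serves IL6ST, lay between 11.9 and 25.7 CPM, with 0.08 (-0.21 to 0.37). These intervals leave out averaged changes of 1 or more on the log2 scale in either direction. In MM1S cells, Fer-1 and RSL3 against untreated gave -0.34 for IL10RB (SE 0.13, FDR = 0.137), or FDR = 0.0347 with the passage as a block. IL6R gave -0.37 there (SE 0.17, FDR = 0.244), or FDR = 0.0526 with the block. In MM1R cells IL10RB gave -0.08 (FDR = 0.731) and IL6R 0.01 (FDR = 0.97). The annotation also places RAVER2 over JAK1, INSL6 over JAK2 and IL6R-AS1 over IL6R on the opposite strand, a read-through transcript IFNAR2-IL10RB over IL10RB, and pseudogenes IL6RP1 and IL6STP1 elsewhere, which adds to the uncertainty of those counts.

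**Figure D3:**
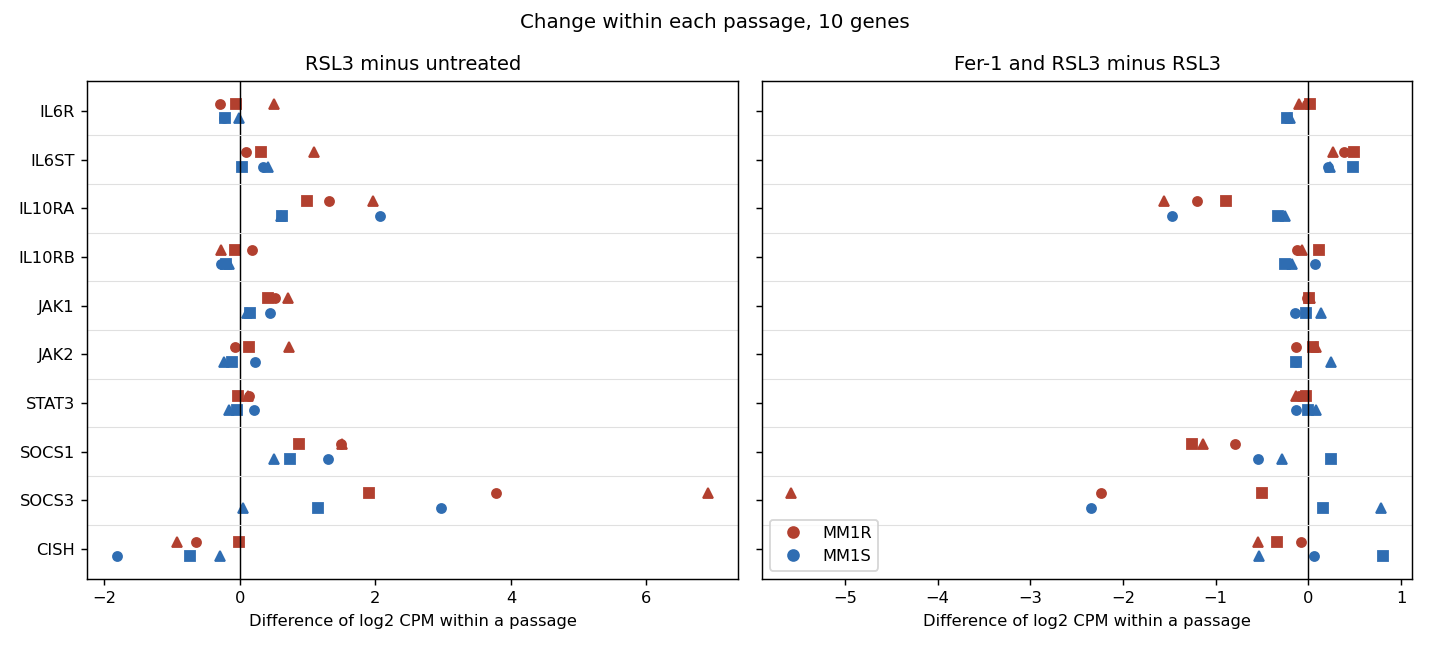
Difference of log2 CPM (prior count 2) within each passage, RSL3 minus untreated on the left and Fer-1 and RSL3 minus RSL3 on the right, for MM1R (red) and MM1S (blue) with circle, square and triangle for replicates 1, 2 and 3. IL10RA is above 0 on the left and below 0 on the right in 6 of 6 passages, while IL6ST is above 0 in both.

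When groups were compared by overlap alone, 5 genes were higher in all RSL3 than in all untreated MM1R libraries (IL6ST, IL10RA, JAK1, SOCS1 and SOCS3) and 1 lower (CISH), where 25.7% of all tested genes did not overlap. In MM1S cells, IL10RA was above and CISH below (24.9% of all genes). The difference between the lines in the RSL3 response was called for 0 of the 10 genes and 0% of all genes by edgeR's quasi-likelihood test, with 0 of the 10 at an unadjusted p under 0.05 (1.55% of all genes) and 0 called by DESeq2. For IL10RA this difference was 0.26 (95% interval -0.54 to 1.06) and for SOCS3 3.13 (-1.10 to 7.36), so that large differences for SOCS3 lay inside the interval. Without MM1S RSL3 replicate 1 the IL10RA difference was 0.76 (FDR = 0.998) and that of SOCS3 was 5.77 (FDR = 0.998), while without MM1R RSL3 replicate 3 or MM1S untreated replicate 1 that of SOCS3 was 1.71 or 2.07.

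The comparison of Fer-1 and RSL3 with RSL3 asks how levels differ when the inhibitor of lipid peroxidation is given ahead of RSL3. It uses the same RSL3 libraries as the comparison above, so a high RSL3 library enters both with opposite sign. IL10RA was lower with Fer-1 in 6 of 6 passages, by 0.26 to 1.56 on the log2 scale, and stayed above the untreated level in 6 of 6, by 0.10 to 0.60. Averaged over both lines it fell by 1.03 (SE 0.19, FDR = 0.0448) and was the 1 gene of the 10 called, among 8 called genes or 0.056% of all tested. This call was close to the threshold. It was lost in 15 of the 18 fits that leave out 1 library, through both the FDR and the fold threshold without MM1R Fer-1 + RSL3 replicate 2 (-0.98, FDR = 0.121) and through the fold threshold without MM1S RSL3 replicate 1 (-0.78, FDR = 0.026). With the passage as a block it also missed the fold threshold (-0.98, FDR = 0.0178), while 53 of all genes were called.

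Within single lines, 0 of the 10 genes and 0% of all tested genes were called in MM1R cells, with 4 at an unadjusted p under 0.05 (6.17% of all genes) and 1, IL10RA, called by DESeq2. In MM1S cells also 0 of the 10 and 0% of all genes were called, with 1 at an unadjusted p under 0.05 (5.75% of all genes) and 0 by DESeq2. IL10RA gave -1.26 in MM1R cells (SE 0.27, FDR = 0.397) and -0.80 in MM1S cells (SE 0.27, FDR = 0.783). Without MM1S RSL3 replicate 1 these were -1.27 (FDR = 0.0116) and -0.29 (FDR = 0.998). SOCS1 gave -1.02 (SE 0.37, FDR = 0.709) and -0.25 (SE 0.37, FDR = 0.98), and SOCS3 gave -3.69 (SE 1.11, FDR = 0.559) and -1.67 (SE 1.09, FDR = 0.901). In MM1S cells without RSL3 replicate 1, SOCS1 (0.29) and SOCS3 (0.97) turned to the other sign. In MM1R cells, 3 genes were lower in all Fer-1 than in all RSL3 libraries (IL10RA, SOCS1 and SOCS3) and 1 was higher (IL6ST), where 13.4% of all genes did not overlap, and in MM1S cells IL10RA was lower (8.79% of all genes).

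**Figure D4:**
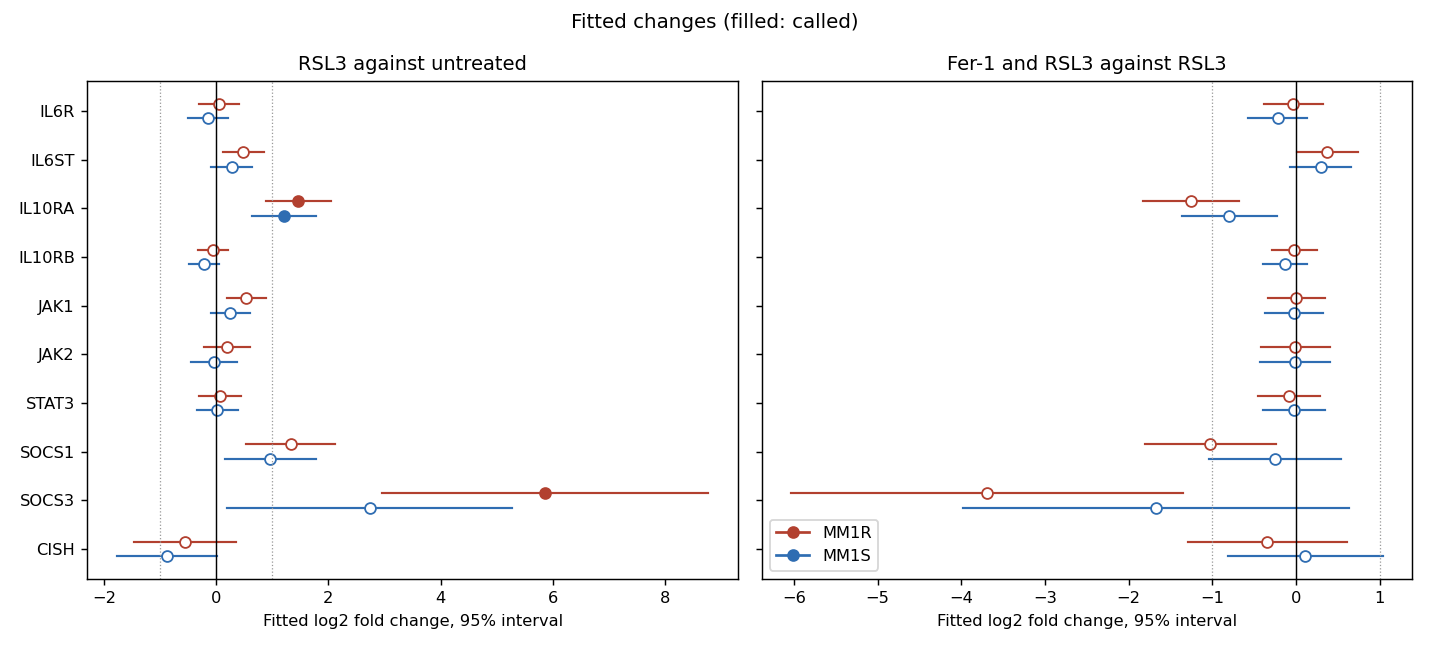
Fitted log2 fold change with its 95% interval for RSL3 against untreated (left) and Fer-1 and RSL3 against RSL3 (right) in MM1R (red) and MM1S (blue) cells. Filled points are called and dotted lines mark a log2 fold change of 1 in either direction. IL10RA is called in both lines and SOCS3 in MM1R cells on the left, and no gene is called on the right.

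Compared with untreated cells, Fer-1 and RSL3 left 0 of the 10 genes called in MM1R cells (2.16% of all genes called), with 2 at an unadjusted p under 0.05 (24.6% of all genes), and 2, IL6ST and JAK1, had an FDR under 0.05 (9.22% of all genes). In MM1S cells 0 were called (1.37% of all genes), with 3 at an unadjusted p under 0.05 (18.8% of all genes). DESeq2 called 0 in either line. IL10RA was then 0.21 above the untreated level in MM1R cells (95% interval -0.36 to 0.78) and 0.41 above it in MM1S cells (-0.16 to 0.98). By overlap, 3 genes lay above (IL6ST, JAK1 and SOCS3) and CISH below in MM1R cells (30.6% of all genes did not overlap), and IL6ST and IL10RA above and IL10RB below in MM1S cells (28.3%).

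Untreated MM1R and MM1S cells did not differ in a called way in the 10 genes. Of them 0 were called by edgeR or DESeq2 and 0 had an unadjusted p under 0.05, where edgeR called 4.64% of all tested genes and 24.8% had such a p. JAK1 and CISH were lower in all MM1R than in all MM1S libraries, where 32.4% of all genes did not overlap. The fitted log2 differences of the genes other than SOCS3 lay between -0.35 for IL6ST and 0.37 for SOCS1, and SOCS3 gave -1.53 (95% interval -5.26 to 2.20).

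The rest of the pathway was described through 5 gene lists, each given by its counts, with RSL3 against untreated in MM1R and MM1S cells in turn. An unadjusted p under 0.05 was found for 18.5% and 19.5% of all tested genes in these comparisons. Of 15 ligands of the IL-6 and IL-10 families, 3 had enough counts to be tested and 0 were called in either line (0 and 1 at an unadjusted p under 0.05). IL6 itself reached at most 5 counts in a library. Of 30 other receptors that signal through JAK kinases, 18 were tested and 0 called in either line by edgeR (5 and 6 at an unadjusted p under 0.05), with medians of -0.18 and -0.17. Of 16 other inhibitors of the pathway, all were tested and 0 called in either line (8 and 7 at an unadjusted p under 0.05), with medians of -0.02 and -0.15. The other 8 JAK and STAT genes and the 22 known STAT3 target genes, of which 20 were tested, each had 1 gene called higher in both lines and 0 lower. The shares of all tested genes called were 1.2% and 1.61%. At an unadjusted p under 0.05 were 5 and 2 of the 8, and 5 and 6 of the 20. Averaged over both lines, 1 of the 16 inhibitors and 2 of the 20 STAT3 targets were called higher, and 0 lower. Of the 8 JAK and STAT genes 1 was called higher, and 0 ligands or receptors, where 3.24% of all genes were called. With an FDR under 0.05 whatever their fold, 5 inhibitors were higher and 3 lower (15.5% of all genes).

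STAT4, a relative of STAT3 that acts downstream of IL-12, was the called gene of the JAK and STAT list. It was at 8.86 ± 0.971 CPM in untreated and 40.2 ± 16.5 CPM in RSL3-treated MM1R cells (log2 fold change 2.18, SE 0.52, FDR = 0.029), and at 9.33 ± 1.49 and 59.1 ± 48.3 CPM in MM1S cells (2.66, SE 0.52, FDR = 0.012). With Fer-1 and RSL3 it was at 46.2 ± 26.6 and 50.9 ± 20.2 CPM, and differed from RSL3 by 0.20 (FDR = 0.973) and -0.21 (FDR = 0.99). The MM1S call was lost without RSL3 replicate 1 (1.75, FDR = 0.0566) or untreated replicate 1 (2.53, FDR = 0.0749), and the MM1R call without untreated replicate 1, 2 or 3 or RSL3 replicate 1 or 2 (FDR up to 0.126). CEBPB, a transcription factor of the acute-phase response, was the STAT3 target called in both single lines. It was at 6.92 ± 0.223 and 22.7 ± 7.57 CPM in MM1R cells (1.72, SE 0.29, FDR = 0.00568) and at 11.1 ± 4.29 and 36.3 ± 9.61 CPM in MM1S cells (1.71, SE 0.28, FDR = 0.00489), and read 22.7 ± 3.09 and 39.3 ± 9.79 CPM with Fer-1 and RSL3. The median of all tested STAT3 targets was 0.05 and 0.03, near that of all genes.

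With Fer-1 and RSL3 against RSL3, 0 genes of any of the 5 lists were called in either line by edgeR, while 5 and 7 of the 20 STAT3 targets had an unadjusted p under 0.05 (6.17% and 5.75% of all genes), with medians of -0.22 and -0.18 (0.01 and -0.01 over all genes). Between untreated lines, 2 listed genes were called, 1 of the 18 tested receptors and 1 of the 20 STAT3 targets. Of all tested genes, 4.64% were called in this comparison. ICAM1, an adhesion molecule, was higher in MM1R cells (61.1 ± 9.01 against 9.57 ± 9.26 CPM, log2 difference 2.68, SE 0.66, FDR = 0.0155). IL13RA1, a chain of the IL-4 and IL-13 receptor, was lower in MM1R cells (0.29 ± 0.0511 against 3.08 ± 1.4 CPM, -3.37, SE 0.62, FDR = 0.00264). The ICAM1 call was lost without MM1S untreated replicate 2 or 3 (FDR = 0.0815 and 0.0831).

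The genes whose log2 CPM followed IL10RA most closely over the 18 libraries were RAB30 (Pearson's r = 0.95), ARF6 (0.95), JUND (0.95), CYTIP (0.95) and BCL2L11 (0.94). Among the 10 genes themselves, SOCS3 (r = 0.84) and SOCS1 (0.75) followed IL10RA best, SOCS1 and SOCS3 had r = 0.84 with each other, and IL6ST was closest to JAK1 (0.74) rather than to IL10RA (0.33). These values describe libraries that share lines, passages and treatments and are not independent.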

How the data were processed

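RNA sequencing of 18 libraries of MM1R and MM1S cells was analysed. The authors isolated total RNA, sequenced it in pairs on a BGISEQ-500, checked it with FastQC 0.11.5, aligned it to hg19 with STAR 2.7.3a, and deposited raw read counts of 43735 genes. The authors also deposited normalized signal values of 29553 genes, each a count divided by 1 size factor per library (0.834 to 1.08). The counting tool, annotation and use of strand are not given in the sources used here.

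Genes with low counts were removed with filterByExpr (minimum count 10), which kept 14281 genes, all 10 described here among them. SOCS3 had 11 counts or fewer in every untreated library and passed through other libraries. Groups were compared with edgeR 4.0.16 (R 4.3.3) on TMM-scaled counts, with 6 group means in 1 quasi-likelihood model of 18 libraries (12 residual degrees of freedom) and Benjamini-Hochberg adjustment. The steps were tested on simulated counts, drawn independently for each library, with no passage effect and no outlying library. That test therefore does not speak to the pairing by passage or to the libraries that stood apart. CPM are counts over the TMM-scaled library total.

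Replicates are passages, which the labels give, and pair the libraries within a line. Deviations of libraries of the same passage correlated with a median of 0.25 (0.0338 to 0.516) over 9 pairs in MM1R cells and of 0.416 (0.216 to 0.681) over 9 pairs in MM1S cells. A fit with the passage as block (8 residual degrees of freedom) was an alternative. The others were DESeq2 1.42.0, RLE and upper-quartile scaling, no filter or a stricter one, the deposited signal values with limma 3.58.1 (log2 of the value plus 1), only the groups compared, and leaving out each library. P-values measure the spread between passages within the 6 groups, pooled over both lines. A library of 1 line can therefore move a p-value in the other. The main fit did not use the pairing by passage.

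The 10 genes, the gene lists and the motifs were chosen with earlier results of these data known. All 10 genes were named, of each list the genes called with RSL3 in either line or between untreated lines (at most 5 per list and comparison), and the 5 genes most correlated with the gene of smallest FDR. Positions and exon lengths came from an hg19 annotation (GENCODE 44), promoters from RefSeq in GRCh38.p14, where all 10 genes matched.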

Additional observations from a re-analysis of the deposited data

How the results depend on the processing

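The direction of IL10RA, SOCS1, SOCS3, IL6ST and JAK1 with RSL3 averaged over both lines was the same in all 26 alternatives, and IL10RA was called in all of them. The counts of the 10 genes called moved as follows, and where nothing is said of it the cause was not tested. For RSL3 against untreated, MM1R cells gave 2 (1 to 3 when leaving out 1 library), with 3, SOCS1 added, by DESeq2, without a filter, with only the groups compared and with the passage as a block, and MM1S cells 1 (0 to 1 when leaving out 1 library), with 2 without a filter on low counts and 0 with only the groups compared, a fit on fewer libraries. For the lines averaged, leaving out 1 library gave 2 to 3. For Fer-1 and RSL3 against RSL3, MM1R cells gave 0 (0 to 1), with 1 by DESeq2 and 3 without a filter, and MM1S cells gave 0, with 1 without a filter. The lines averaged gave 1 (0 to 1), with 0 under upper-quartile scaling, 0 with the authors' values, 0 with only the groups compared, 0 with the passage as a block and 2 without a filter. For Fer-1 and RSL3 against untreated, MM1R cells gave 0 (0 to 1, IL6ST at 1.02 without untreated replicate 1) and 1 without a filter.

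With the passage as a block, SOCS1 was called in MM1R cells and IL10RA no longer with Fer-1, and no other call of the 10 genes changed. The block raised the number of all genes called with RSL3 from 171 to 410 in MM1R cells and from 230 to 387 in MM1S cells. It could not be used between the lines, which share no passage. Without a filter 27858 genes were tested, and Fer-1 and RSL3 against RSL3 then called 134 genes in MM1R cells and 151 in MM1S cells, where the filtered fit called 0. With only the groups compared, the MM1S calls of STAT4 (FDR = 0.164) and CEBPB (FDR = 0.155) were lost. Having 3 libraries per group and counts of 0 to 33 for CISH and untreated SOCS3 limit what could be detected for those genes.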

Other observations

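IL10, the ligand of IL10RA, had too few counts to be tested and was looked at after the values of its receptor were seen. With RSL3 it had 3, 4 and 27 counts in MM1R cells and 21, 1 and 1 counts in MM1S cells. The 27 counts came from MM1R RSL3 replicate 3 and the 21 from MM1S RSL3 replicate 1, the libraries with the highest IL10RA of each line (186 and 229 CPM). These libraries also had the most SOCS3 counts of each line (226 and 79), and MM1S RSL3 replicate 1 is a library that stood apart. The untreated and Fer-1 libraries had at most 3 counts. IL6 had 5 counts or fewer in every library.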
